A study of Gallus gallus with 6 samples.

Results

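Most of the genes described here encode proteins that move small molecules and proteins across the mitochondrial membranes. All were taken by name, without use of any measured value. They are every symbol of the deposited count table that begins with SLC25A and a digit, TIMM, TOMM, VDAC or SAMM. The rule found 23 of the 6789 genes in the table: 11 carriers of the SLC25 family, 2 VDAC channels and 10 genes of the import machinery. These classes also follow the names, so TIMMDC1, a complex I assembly factor, and SLC25A46, tied to mitochondrial shape, are counted in them. RefSeq's GRCg7b gene list holds 59 symbols that match the rule, and 22 of them were in the table. The table held no gene under the names TOMM20, TOMM22, TOMM40, TOMM70, TIMM22, TIMM23, TIMM50, VDAC3 or SLC25A5. The members are thus only a part of these families and complexes. RNA was sequenced from Hes5.3-positive cells that had been sorted by flow cytometry from chick retinas. The RA libraries (n = 3) came from retinas kept for 8 h in DMEM with 10% serum and 2.5 µM retinoic acid, and the control libraries (n = 3) from retinas kept in the same medium with DMSO. All retinas were from embryonic day 5. Each library pooled 2 retinas, 1 from each of 2 embryos, and the fellow eyes of the same 2 embryos went to the other group, which gives 3 pairs that the labels number 1, 3 and 4. How the Hes5.3-positive cells were marked for sorting is not given in the sources used here.

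Mitochondria import nearly all of their proteins from the cytosol. In mammals and yeast, precursors enter through the TOM complex of the outer membrane, and are then passed to the SAM complex for insertion as beta-barrels, to small TIM chaperones that escort hydrophobic proteins between the membranes, or to the TIM23 and TIM22 complexes of the inner membrane. Metabolites cross the outer membrane through VDAC pores and the inner membrane through SLC25 carriers, which exchange ADP for ATP and move phosphate, amino acids, nucleotides and cofactors. The roles given below come from mammals and yeast and are background to the chick values.

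Library totals ranged from 19808063 to 27235633 counts. The sorted cells carried retinal progenitor markers: 10 of 10 listed markers were in the table, with a summed level of 7320 to 8840 CPM in RA libraries and 6660 to 7740 CPM in control libraries. CPM is the count scaled to 1000000 reads of the library, after TMM correction for composition. Sums for the markers of other cell types were lower, but they cover fewer genes and are not scaled for transcript length. The size of these gaps is thus not a measure of cell numbers. Ganglion cell markers (7 of 10 in the table, POU4F1, POU4F2 and NEFL being absent) summed to 782 to 1010 CPM with RA and 793 to 950 CPM in controls. Pigment epithelium markers (6 of 7) summed to 46.6 to 51.3 CPM with RA and 40.5 to 46.3 CPM in controls, and lens markers (8 of 9) to 55.9 to 82.4 CPM with RA and 52.4 to 62.3 CPM in controls. Mesenchyme markers (6 of 7) summed to 26.4 to 51.1 CPM with RA and 26.0 to 37.7 CPM in controls. Of the blood markers 4 of 8 were in the table, among them HBM and GATA1 at 0 counts, and they summed to at most 0.103 CPM with RA and 0.126 CPM in controls. The endothelial list had 1 of 4 markers in the table, at no more than 0.0856 CPM with RA and 0.874 CPM in controls. Among all these markers edgeR called 3 with RA, where 1.07% of all genes tested were called. They were SFRP1 and NR2E1, 2 of the 10 progenitor markers tested, and POSTN, 1 of the 5 mesenchyme markers tested. None was called of the 7 ganglion cell, 4 pigment epithelium and 3 lens markers tested. The part of the called markers in the results below was not tested. The RA target CYP26A1, which encodes the enzyme that breaks down RA, was higher with RA in 3 of 3 pairs, and changed by 5.22 log2 units (SE 0.10; edgeR adjusted p = 2.14e-14). In bulk RNA, fewer cells of a type and less RNA per cell cannot be told apart.

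None of the 23 genes passed the threshold for a change with RA. The comparison asked whether 8 h of RA altered the RNA level of each gene within the pairs, and was made with edgeR's quasi-likelihood test with the pair as a block, adjusted over the 5041 genes that passed a filter on low counts. All 23 members passed that filter, and the lowest count of any member in any library was 325. With an adjusted p under 0.05 as the threshold, 54 genes or 1.07% of those tested were called, and 0 of the 23 members were. At an unadjusted p under 0.05 there were 2 members, VDAC1 and SLC25A15, or 8.7%, against 448 genes or 8.89% of all genes tested, so the members' share was close to that of all genes. The same 0 members were called by limma-voom and by DESeq2, each with 2 at an unadjusted p under 0.05. Of all genes, limma-voom called 59 and DESeq2 88. Without the pair block 7 of all genes and 0 members were called, and 0 members had an unadjusted p under 0.05, as was also so without pair 1 and without pair 4. In the authors' deposited table, which rests on the same libraries, 0 of the 23 had an adjusted p under 0.05, with VDAC1 the 1 member at an unadjusted p under 0.05. That table had only 12 genes in all with an adjusted p under 0.05.

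**Figure D1:**
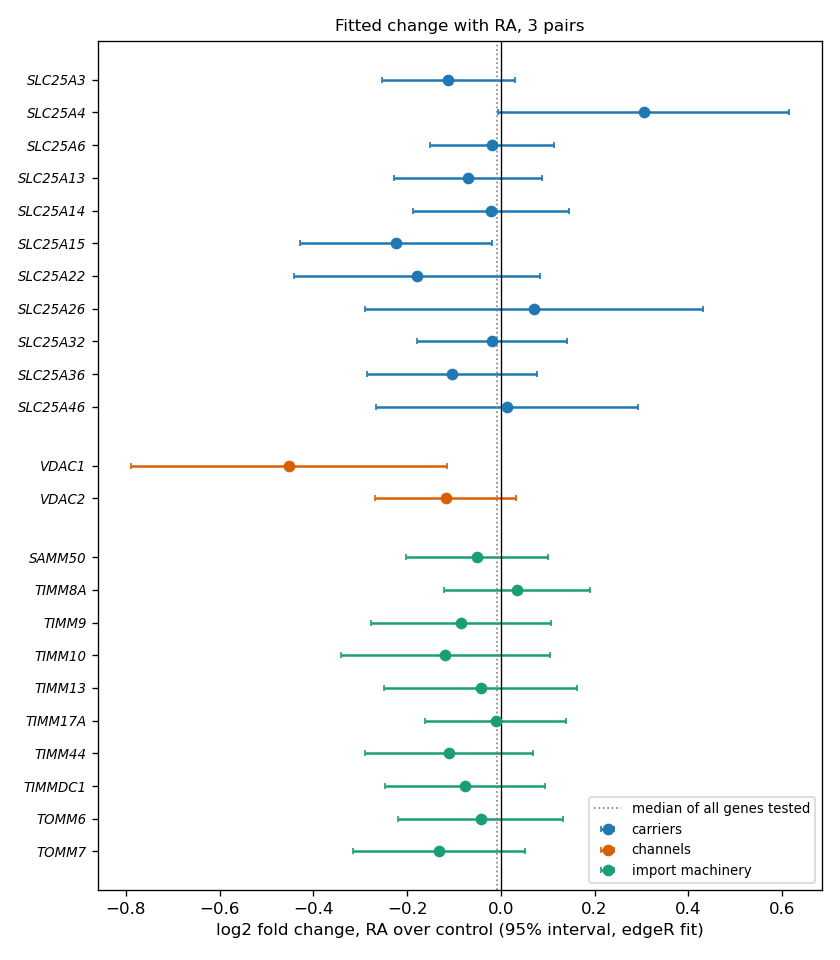
The log2 fold change of each gene, RA over control, from the edgeR fit with the pair as a block (points), with its 95% interval (bars); carriers are at the top, channels in the middle and import machinery at the bottom. The intervals of VDAC1 and SLC25A15 lie below 0, and 21 of the 23 intervals lie within 0.5 of 0 on either side.

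The fit also gave an interval for the size of each change. The fitted log2 fold changes ran from -0.45 for VDAC1 to 0.30 for SLC25A4, and their median was -0.07, beside -0.0072 over all genes tested. The 95% intervals were 0.265 to 0.72 log2 units wide. They lay within 0.5 of 0 on either side for 21 of the 23 members, and the exceptions were VDAC1 and SLC25A4. A p above the threshold does not show that the levels were the same. A log2 change beyond 0.5 was outside the fitted interval of each of those 21. These intervals use variances that edgeR partly borrows from other genes, so they do not rest on the 3 pairs of each gene alone. For some of the 21 the log2 ratio varied widely between pairs, as for SLC25A46 and SLC25A22 (SD 0.30 each, n = 3 pairs). The median of that SD over all 23 members was 0.148. By direction, 19 of 23 fitted values were below 0, against 51.9% of all genes tested. Without pair 1 that count was 15 of 23, against 50.8% of all genes tested. Counts below 0 in related gene groups are given with the import machinery. One direction in 3 of 3 pairs was seen in 5 members (SLC25A3, SLC25A13, SLC25A15 and VDAC1 lower, SLC25A4 higher), or 21.7%, where 30.1% of all genes tested had it, 14.3% lower and 15.7% higher with RA.

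Of the 2 channels, VDAC1 had the smallest p of all 23 members. VDAC proteins form the pores through which ATP, ADP and other metabolites cross the outer membrane. VDAC1 had 24.3, 20.8 and 17.7 CPM in the RA libraries of pairs 1, 3 and 4, against 38.6, 21.8 and 27.0 CPM in their controls. Its RA libraries were lower in each pair, by little in pair 3, and the groups overlapped, since the RA library of pair 1 stood above the control library of pair 3. The log2 fold change was -0.45 (SE 0.16, 95% interval -0.79 to -0.12; edgeR adjusted p = 0.312). Pairs 1, 3 and 4 gave log2 ratios of -0.67, -0.06 and -0.61, and the fitted value was -0.34 without pair 1, -0.64 without pair 3 and -0.37 without pair 4 (adjusted p = 0.613, 0.134 and 0.678 in that order).

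VDAC2, the second outer-membrane pore in the table, had 730, 871 and 738 CPM with RA against 861, 846 and 824 CPM in controls. The RA libraries of pairs 1 and 4 were below every control library, and that of pair 3 was above every one. Its log2 fold change was -0.12 (SE 0.07, adjusted p = 0.681). The interval of -0.27 to 0.03 for VDAC2 overlapped that of VDAC1, and the difference between the 2 genes was not tested.

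**Figure D2:**
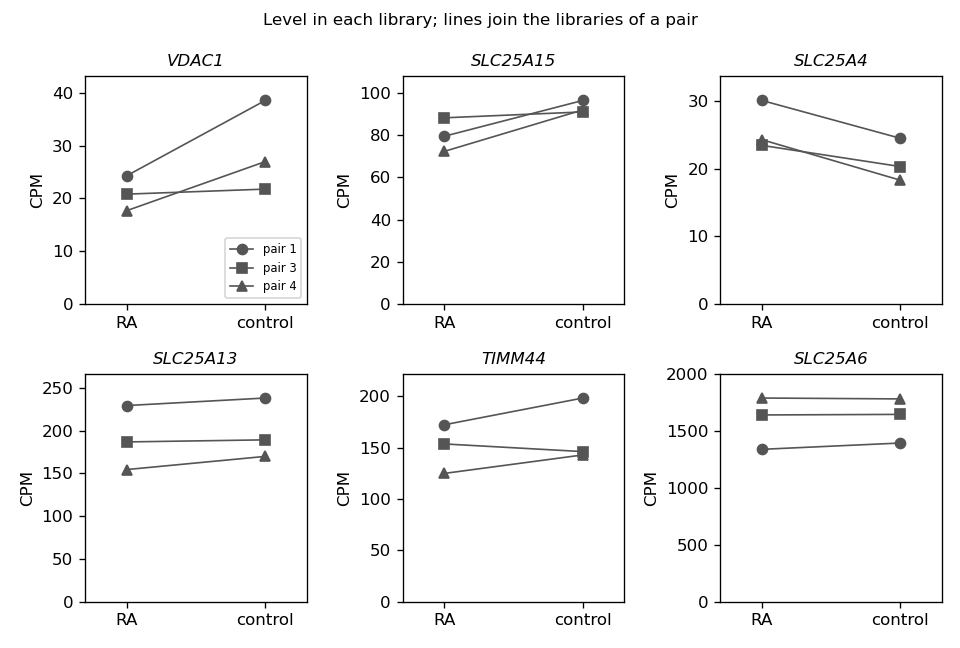
CPM of 6 genes in each library, RA at the left and control at the right, with a line joining the libraries of a pair; the vertical axes start at 0. VDAC1 and SLC25A15 were lower and SLC25A4 higher with RA in each pair. SLC25A13, TIMM44 and SLC25A6 (bottom row) are the 3 genes called for a difference between pairs, by a test chosen after the data had been examined. They are 13.0% of the members, where 13.6% of all genes tested were called.

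Among the carriers, those for ATP, phosphate and cofactors had 5 members, SLC25A3, SLC25A4, SLC25A6, SLC25A32 and SLC25A36, and 0 of them were called. SLC25A4 and SLC25A6 are ADP/ATP carriers, which export ATP from the matrix in exchange for ADP. SLC25A4 had 30.1, 23.4 and 24.3 CPM with RA against 24.5, 20.3 and 18.3 CPM in controls. It was higher with RA in each pair, and the groups overlapped by the control library of pair 1. Its log2 fold change of 0.30 (SE 0.15, 95% interval -0.01 to 0.61, edgeR adjusted p = 0.571) was the highest of the 23. SLC25A6 had 1339, 1641 and 1790 CPM with RA against 1395, 1646 and 1783 CPM in controls. Within each pair its RA and control libraries were close, with log2 ratios of -0.06, -0.0044 and 0.0064 in pairs 1, 3 and 4. Its fitted change was -0.02 (SE 0.06, interval -0.15 to 0.11). The ADP/ATP carriers are alike in sequence, and RefSeq's GRCg7b list also gives SLC25A5 as a synonym of SLC25A6, so how reads were split between these carriers is uncertain.

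SLC25A3, which brings phosphate into the matrix for ATP synthesis, had 509, 627 and 573 CPM with RA against 554, 639 and 652 CPM in controls. It was slightly lower with RA in each pair, with overlap between the groups, and its log2 fold change was -0.11 (SE 0.07, adjusted p = 0.681). SLC25A32, a carrier linked to folate and flavin transport, averaged 183 ± 7.49 CPM with RA and 186 ± 13.7 CPM in controls (SD, n = 3 each). SLC25A36, a pyrimidine nucleotide carrier, averaged 137 ± 19.7 CPM with RA and 147 ± 6.79 CPM in controls (SD, n = 3 each). Its RA library of pair 4, at 115 CPM, was the lowest of the 6, and the log2 ratios of -0.04 in pair 1 and 0.0014 in pair 3 were near 0.

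The amino acid and methyl-donor carriers had 4 members, SLC25A13, SLC25A15, SLC25A22 and SLC25A26, and 0 were called. SLC25A15, the ornithine carrier known from the mammalian urea cycle, had 79.5, 88.3 and 72.4 CPM with RA against 96.5, 91.1 and 92.0 CPM in controls. All 3 RA libraries stood below all 3 controls, and it was the only member whose groups did not overlap, where 7.48% of all genes tested had groups that did not. Its log2 fold change was -0.22 (SE 0.10, 95% interval -0.43 to -0.02; edgeR adjusted p = 0.502). Between pairs the log2 ratio ran from -0.35 in pair 4 to -0.05 in pair 3.

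SLC25A13 is an aspartate-glutamate carrier and part of the malate-aspartate shuttle, which feeds cytosolic reducing power to the matrix. It had 229, 187 and 155 CPM with RA against 238, 189 and 170 CPM in controls. Each RA library was a little below its own control, and pair 1 was above pairs 3 and 4 in both groups (log2 fold change -0.07, SE 0.07, adjusted p = 0.859). SLC25A22, a glutamate carrier, had 47.6, 58.9 and 41.3 CPM with RA against 52.3, 55.0 and 58.2 CPM in controls. It was lower with RA in pairs 1 and 4 and higher in pair 3, and its fitted change was -0.18 (SE 0.12, adjusted p = 0.742). SLC25A26, which carries the methyl donor S-adenosylmethionine into the matrix, averaged 17.5 ± 1.52 CPM with RA and 16.8 ± 3.69 CPM in controls (SD, n = 3 each). It was higher with RA in pairs 1 and 3 and lower in pair 4.

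SLC25A14, a member of the uncoupling protein branch, and SLC25A46, an outer-membrane protein tied to mitochondrial shape, were the remaining carriers. SLC25A14 averaged 175 ± 10.4 CPM with RA and 177 ± 6.80 CPM in controls (SD, n = 3 each), with a fitted change of -0.02 (SE 0.08). SLC25A46 had 40.8, 43.9 and 41.0 CPM with RA against 31.9, 46.9 and 47.5 CPM in controls. Its control library of pair 1 was the lowest of the 6, and the log2 ratio of 0.35 in pair 1 stood against -0.10 in pair 3 and -0.21 in pair 4. The fitted change of SLC25A46 was 0.01 (SE 0.13), which averages over these opposite directions.

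**Figure D3:**
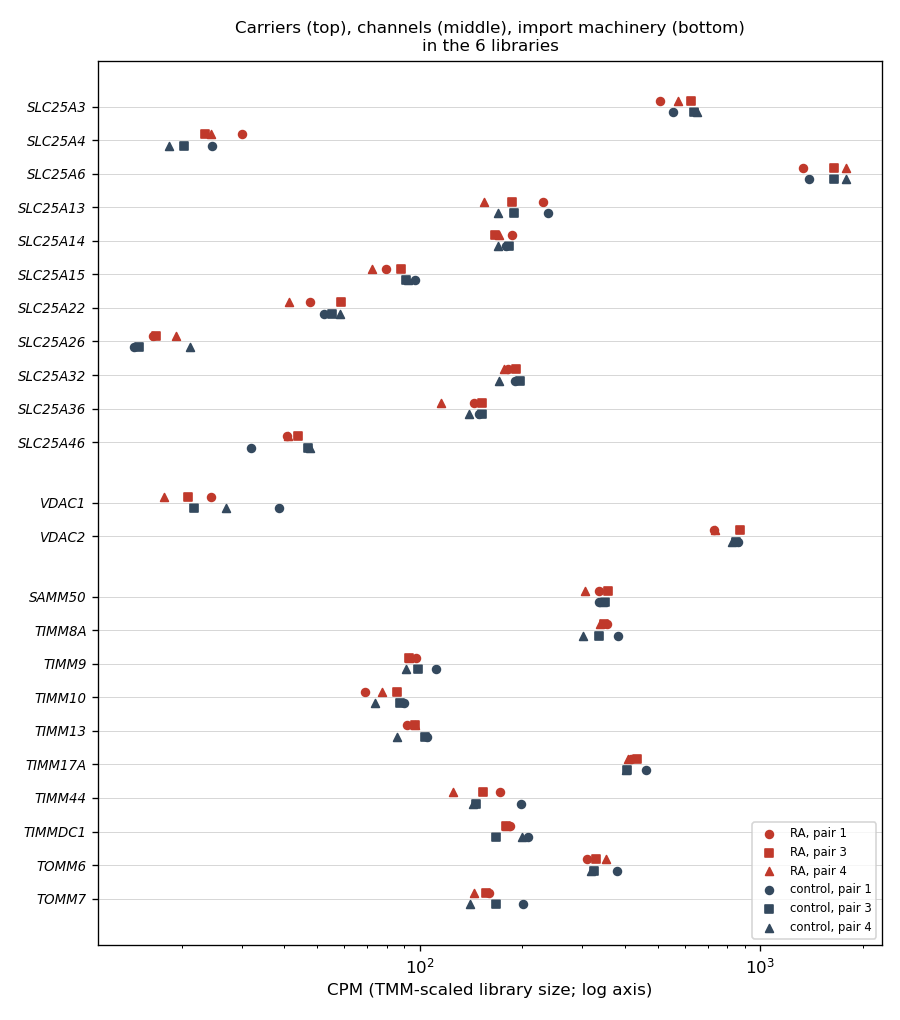
Level of each gene in the 6 libraries on a log axis in CPM, which is not divided by transcript length, so rows are not to be compared with each other. In each row the RA libraries (red) are above the control libraries (dark), and the marker shape gives the pair; SLC25A15 is the row in which the red and dark markers do not overlap.

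In the import machinery 0 of 10 genes passed the adjusted threshold, 0 passed 0.05 before adjustment, and 9 of 10 fitted values were below 0, against 51.9% of all genes tested. Without pair 1 that count was 5 of 10, against 50.8% of all genes tested. The direction was not particular to the import genes. With all pairs, fitted values were below 0 for 37 of 41 nuclear respiratory chain and ATP synthase genes and 55 of 58 cytosolic ribosomal protein genes. So were 28 of 37 mitochondrial ribosomal protein genes and 13 of 24 partner genes outside the name rule. In the TOM and SAM complexes of the outer membrane there were 3 members. TOMM6 and TOMM7 are small subunits of the TOM complex. TOMM7 had 160, 157 and 144 CPM with RA against 202, 167 and 140 CPM in controls, with the control library of pair 1 above the other 5 libraries. Pairs 1, 3 and 4 gave log2 ratios of -0.33, -0.09 and 0.04, and its fitted change of -0.13 (SE 0.09, edgeR adjusted p = 0.725) was the lowest of the 10. TOMM6 had 310, 329 and 351 CPM with RA against 380, 324 and 319 CPM in controls. It was lower with RA in pair 1 (log2 ratio -0.29) and higher in pair 4 (0.14), and the fitted change was -0.04 (SE 0.08). SAMM50, the core of the complex that inserts beta-barrel proteins such as VDAC, averaged 333 ± 26.5 CPM with RA and 344 ± 6.73 CPM in controls (SD, n = 3 each). The RA library of pair 4, at 305 CPM, was its lowest value.

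The inner-membrane TIM23 complex admits proteins with a cleavable presequence and was represented by 2 members. TIMM17A, a subunit of its channel, averaged 420 ± 12.8 CPM with RA and 424 ± 32.1 CPM in controls (SD, n = 3 each), with a fitted change of -0.01 (SE 0.07). RefSeq's GRCg7b list gives this symbol as a synonym of TIMM17B, so the gene may be named differently elsewhere. TIMM44, which tethers the import motor to the channel, had 172, 154 and 125 CPM with RA against 198, 146 and 143 CPM in controls. Pair 1 was highest in both groups, and RA was lower in pairs 1 and 4 and higher in pair 3 (log2 fold change -0.11, SE 0.08, adjusted p = 0.775).

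The small TIM chaperones carry hydrophobic precursors, the SLC25 carriers among them, through the space between the membranes. TIMM9 and TIMM10 act together as one complex, and TIMM8A and TIMM13 as another. TIMM9 had 97.5, 93.2 and 92.7 CPM with RA against 111, 98.5 and 91.3 CPM in controls. TIMM10 had 68.8, 85.7 and 77.3 CPM with RA against 89.9, 87.6 and 74.0 CPM in controls. Both were lower with RA in pairs 1 and 3 and slightly higher in pair 4, with fitted changes of -0.08 (SE 0.09) for TIMM9 and -0.12 (SE 0.10) for TIMM10. TIMM13 had 91.4, 96.5 and 96.8 CPM with RA against 105, 104 and 85.8 CPM in controls. It had the same pattern over the pairs, with log2 ratios of -0.20, -0.10 and 0.17 in pairs 1, 3 and 4. TIMM8A had 354, 347 and 338 CPM with RA against 381, 336 and 302 CPM in controls. It was lower with RA in pair 1 alone, and its fitted change of 0.03 (SE 0.07) was the only one above 0 among the 10. All 4 small TIM genes were thus lower with RA in pair 1 and higher in pair 4, as were TOMM6, TOMM7 and TIMM17A. TIMMDC1, a complex I assembly factor that carries the TIMM name, averaged 181 ± 3.24 CPM with RA and 191 ± 21.1 CPM in controls (SD, n = 3 each), and without it the median log2 fold change of the import machinery was -0.05, against -0.06 with it.

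The carriers and the import machinery were then set side by side, as medians over genes that are not replicates and so without a test. Each covers only the genes that were in the table. The fitted log2 fold changes had a median of -0.02 over the 11 carriers and -0.06 over the 10 import genes, a difference of 0.04. Within pairs this difference changed sign. In pair 1 the median log2 ratio was -0.05 for carriers and -0.20 for import genes, and all 10 import genes were lower with RA, against 7 of 11 carriers. In pair 3 both medians were near 0, at -0.02 for carriers and 0.03 for import genes. In pair 4 the median was -0.14 for carriers and 0.03 for import genes, with 7 of 11 carriers and 3 of 10 import genes lower with RA. Carriers minus import thus came to 0.14, -0.04 and -0.17 in pairs 1, 3 and 4, and the spread of that difference between pairs was 0.155 (SD, n = 3 pairs), larger than the fitted difference itself. Without pair 1 the fitted medians were -0.08 for carriers and -0.0077 for import genes, a difference of -0.07. The median over all genes tested was within 0.01 of 0 in each pair.

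The values of pair 1 were then read by library. For 9 of the 10 import genes the control library of pair 1 was the highest of the 6, the exception being SAMM50, while it was the highest for 2 of 11 carriers and for 22.2% of all genes tested. That library came from 57000 sorted cells and 52.8 ng of RNA, the lowest of the 6 in both, and the part of these quantities in the result was not tested. In pair 4, the RA library was the lowest of the 6 for 4 of 11 carriers, against 17.7% of all genes tested, and the control library was the lowest for 5 of 10 import genes, against 16.1% of all genes tested.

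**Figure D4:**
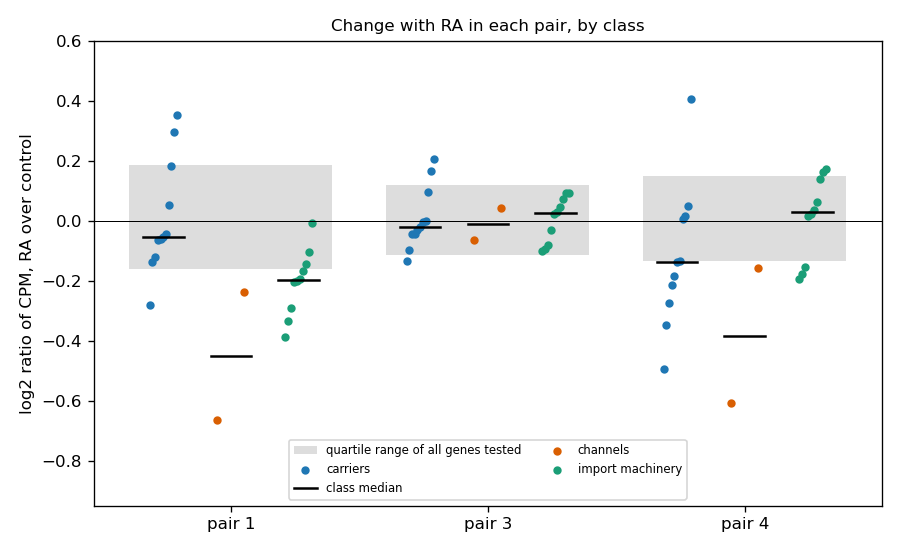
Log2 ratio of CPM, RA over control, for each gene in pairs 1, 3 and 4, with 1 point per gene, a black bar at each class median and a grey band from the lower to the upper quartile of all genes tested. The import genes lie below 0 in pair 1 and around 0 in pairs 3 and 4, while the carriers have their lowest median in pair 4.

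The share of members that differed between the pairs was close to that of all genes. An F-test of the pair terms in the same edgeR fit, chosen after the data had been examined, called 3 of the 23 members, or 13.0%. That compares with 13.6% of all genes tested and 16.6% of genes at or above the lowest member mean CPM. They were SLC25A13 (adjusted p = 0.00405), SLC25A6 (0.00925) and TIMM44 (0.0168). SLC25A13 and TIMM44 were highest in pair 1 and lowest in pair 4 in both groups. SLC25A6 was lowest in pair 1, at 1339 CPM with RA and 1395 CPM in its control, and highest in pair 4, at 1790 and 1783 CPM. Without pair 1, 0 members were called by this test, and without pair 4, 1 was.

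Proteins that work with these genes but fall outside the name rule were examined as a list of 60 symbols, older synonyms included, of which 24 were in the table and all 24 were tested. None was called, against 1.07% of all genes tested. Their median log2 fold change was -0.01, against -0.0072 over all genes tested. Presequence motor and processing genes had 9 members, 6 of them below 0 (51.9% of all genes tested were), with a median of -0.05. HSPA9, the motor chaperone that pulls proteins into the matrix, had a fitted change of -0.03 (SE 0.06), and HSPD1, the matrix folding chaperone, 0.04 (SE 0.06). The relay and insertion genes (4, median 0.01) included CHCHD4, the oxidoreductase that traps small TIM proteins between the membranes, at 0.05 (SE 0.07). MICOS and outer-membrane assembly genes (4) had a median of 0.06, and pyruvate and calcium transport genes (3) a median of 0.03, with MPC1 and MPC2, the subunits of the pyruvate carrier, at 0.03 and -0.01. Among the other 4 genes of the list, SFXN1, UCP3, PPIF and TSPO, UCP3 alone had an unadjusted p under 0.05. It was the only such gene of the 24 partners, or 4.17%, against 8.89% of all genes tested. UCP3, an uncoupling protein of the same carrier family, had 12, 31 and 35 counts with RA against 9, 0 and 5 counts in controls. The RA libraries stood above the controls, but no library held more than 35 counts (edgeR adjusted p = 0.447). UCP3 passed the filter on low counts through its RA libraries alone, as each control library was below the filter's minimum. That it was tested and that its groups separated thus rest on the same RA libraries, so no change of UCP3 is concluded.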

How the data were processed

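Gene expression was measured by RNA-seq in 6 libraries of sorted chick retinal cells. Per the labels' protocols, cDNA was amplified from 1 ng of total RNA and sequenced as single reads of 100 bases. STAR 2.5.3a, HTSeq 0.6p1, edgeR 3.18.1 and the build galGal5 are named in the submitters' processing notes, without their roles. The authors deposited raw counts per gene symbol, a CPM table of 4752 genes in which each column is the counts over 1 factor, and a table of log2 fold changes, p-values and adjusted p-values for a paired comparison whose test its header does not name. Tests here used the deposited counts. Strand use in counting is not given in the sources used here.

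The filter was edgeR's filterByExpr (10 counts in at least 3 libraries at the median depth, 15 in total), the scaling TMM, and the test edgeR's quasi-likelihood F test (edgeR 4.0.16, R 4.3.3) with the pair as a block and Benjamini-Hochberg adjustment over 5041 genes. Standard errors are the absolute log2 fold change over the square root of F. Log2 ratios within a pair add a prior count of 2 before the log. That the numbers pair the libraries is stated in the series' design text. Deviations from the group means correlated at 0.29, 0.25 and 0.34 in pairs 1, 3 and 4. Replicates differed by more than sampling noise (chi-square per degree of freedom at least 47.5). The fit was tested on simulated data.

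Named are members called, up to 12 more at an unadjusted p under 0.05 and the highest in each role group. Genes of a textbook core are described where the table held them, and its absent genes are listed at the opening. The other members are named so that each is accounted for. The name rule used no measured value, but members, lists and tests were chosen with earlier results of these data known. Alternatives covered the block, 3 scalings, the filter, limma-voom (limma 3.58.1), DESeq2 1.42.0 and each pair left out. Of the 23 symbols, 22 are current RefSeq symbols of GRCg7b and 1 is a synonym. Coordinates are left out because that reference is of another build than galGal5.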

Additional observations from a re-analysis of the deposited data

How the results depend on the processing

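The number of member genes called with RA was 0 under each of the 10 alternatives, and the lowest adjusted p of any member under them was 0.134 (VDAC1 without pair 3). The number of all genes called, 54, was 7 without the replicate block, 85 with no filter on low counts and 88 with DESeq2, and 36 to 81 leaving out 1 pair; the cause was not tested. Members at an unadjusted p under 0.05 numbered 2, but 0 without the replicate block and 0 to 3 leaving out 1 pair. The block changed no call of a member. Members differing between pairs numbered 3, and 0 to 3 leaving out 1 pair. Of 230 gene values under alternatives, 220 kept their direction. Of the 10 that did not, 9 came from leaving out 1 pair, and 9 of the 23 genes were reversed at least once. The alternatives that left out no pair refit the same 6 libraries, so a kept direction under them says little. The exceptions follow. SLC25A46 was -0.0084 without the replicate block. Leaving out 1 pair gave log2 fold changes of -0.157 to 0.137 for SLC25A46, -0.0912 to 0.0193 for SAMM50, -0.0598 to 0.0347 for SLC25A14, -0.0458 to 0.0013 for SLC25A32, -0.202 to 0.0148 for TIMM10, -0.142 to 0.0354 for TIMM13, -0.0635 to 0.0536 for TIMM17A, -0.0218 to 0.104 for TIMM8A and -0.127 to 0.0803 for TOMM6. The 3 scalings reversed 0 of the 23.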

Other observations

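The lower RA values of the import genes in pair 1 were also seen in other nuclear genes for mitochondrial and ribosomal proteins, in groups of symbols chosen after the data had been examined. Mitochondrial ribosomal proteins (37 genes tested) had a median log2 ratio of -0.22 in pair 1, -0.02 in pair 3 and 0.03 in pair 4, and 35 of the 37 were lower with RA in pair 1. Nuclear subunits of the respiratory chain and ATP synthase (41 genes) had medians of -0.27, 0.01 and 0.04 in pairs 1, 3 and 4, with 40 of 41 lower in pair 1. Cytosolic ribosomal proteins (58 genes) had medians of -0.33, -0.0021 and -0.07, with 56 of 58 lower in pair 1. Over all genes tested, 49.7% were lower in pair 1. The groups were taken by the start of the symbol alone. Genes that share a prefix but encode no such subunit or ribosomal protein may therefore be among them. With all pairs 0 genes of these groups were called by the edgeR fit. An unadjusted p under 0.05 was reached by 1 mitochondrial ribosomal protein gene (2.7%), 0 respiratory chain genes and 14 cytosolic ribosomal protein genes (24.1%), against 8.89% of all genes tested. Of the 24 partner genes outside the name rule, 16 were lower with RA in pair 1, with a median log2 ratio of -0.11.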
